A study of Mus musculus with 12 samples.

Results

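The genes described here carry the cell's transcriptional response to low oxygen and its route from glucose to lactate, in a mouse thymic cell line given 2,3,7,8-tetrachlorodibenzo-p-dioxin (TCDD). They were taken from a list of 32 gene symbols: 5 regulators of the hypoxia-inducible factors (HIF), 10 HIF targets outside glycolysis, and 17 genes of glucose uptake, glycolysis and the handling of pyruvate and lactate. A gene was represented by the probe set with the highest mean over all arrays among the probe sets annotated to that symbol alone, and Ndrg1 by all 5 of its probe sets. Of the 32 genes, 29 had such a probe set, among 12393 genes with one on the array. Of these 29, 27 lay at or above the 30th percentile of all probe-set means (a log2 level of 3.98) and were tested. Adm, which encodes the vasodilator peptide adrenomedullin, and Aldoc, a brain-type aldolase, fell below that level with means of 3.56 and 3.76. Bnip3l was represented only by 3 probe sets that carry a second symbol, and no value is given for it, for Gpi1 or for Eno1.

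ET cells, a line described as cortical thymic epithelium of the mouse fetus, were grown nearly to confluence in high-glucose medium with serum. They received 5 nM TCDD or the solvent 1,4-dioxane at 0.05% by volume for 2, 4 or 6 h, with 2 arrays for each of the 6 groups and 12 arrays in all. TCDD is a persistent ligand of the aryl hydrocarbon receptor (AhR), treatment and time are the only recorded differences between groups, and no hypoxic treatment is recorded. One 4 h TCDD array carries the solvent in its treatment field, and both 6 h solvent arrays are described as 4 h in their free text; the sample titles set the groups used here. The 2 arrays of a group are described as biological duplicates; whether they came from separate passages is not given, so the tests measure the spread between these cultures. The array measured RNA per RNA loaded, and fewer expressing cells cannot be told apart from less RNA per cell. Of 12 fixed markers of cortical thymic epithelium 11 were on the array and 5 reached the tested level; Krt18, Epcam, Prss16, Ly75, Cd83 and Cdh1 did not. Of 12 mesenchymal markers 11 reached it. The mean level of the epithelial markers was 4.66 to 4.91 in TCDD arrays, against 4.69 to 4.85 in solvent arrays, and that of the mesenchymal markers 8.97 to 9.80, against 9.42 to 9.74. The treatment labels were borne out by Cyp1a1, the AhR's most inducible target, which read 9.3 to 11.1 in the 6 TCDD arrays, against 4.0 to 5.5 in the 6 solvent arrays (log2, average difference 5.83 ± 0.26, SE; limma adjusted p = 1.40e-05).

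Clustering the 12 arrays on all tested probe sets gave, at 4 clusters, 1 of 7 arrays and 3 small ones: both second 2 h arrays, both second 6 h arrays, and the first 4 h TCDD array alone. No label explains the clusters, which were found in the data; the 7 arrays are called here the larger array set and the other 5, which are 3 clusters pooled, the smaller array set. The zinc-binding metallothioneins differ between the sets: Mt1 was on average 3.02 and Mt2 3.10 higher (log2) in the smaller set within the 5 groups that hold both. Both 4 h solvent arrays belong to the larger set while 1 of the 4 h TCDD arrays belongs to the smaller, so at 4 h the sets move with treatment. Results are given below with array set as a block, or within sets, where they turn on it.

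HIF is a heterodimer of an oxygen-regulated alpha subunit, HIF-1alpha (Hif1a) or HIF-2alpha (Epas1), and the constitutive subunit Arnt. In oxygenated cells the prolyl hydroxylases encoded by Egln1 and Egln3 mark the alpha subunit, and the product of Vhl then directs its destruction. Liganded AhR enters the nucleus and pairs with the same Arnt protein, so the question asked of the list was whether HIF targets move when AhR is activated. Since HIF-alpha is controlled largely as a protein, its mRNA level is no measure of HIF activity, and the mRNA of its targets was examined. HIF protein and HIF activity were not measured.

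The promoters of 5 members are shown because each holds 1 or both of the core sequences through which HIF, and the dimer of AhR with Arnt, are known to bind DNA. Ddit4 is the member with the largest TCDD difference of those with an entry in the promoter table; Slc2a1, Pgk1, Ldha and Bnip3 are well-studied HIF targets whose levels are given below. The sequences are the 250 bases before the annotated start, 5′ to 3′ on the gene's strand, from RefSeq (build GRCm38.p6). Where a gene has several starts, the window with the most copies of ACGTG is shown. Capitals mark ACGTG and GCGTG on either strand, hence also CACGT and CACGC. Both are cores of the hypoxia response element, and GCGTG is also the core of the AhR element; the palindrome CACGTG holds ACGTG on each strand.
Ddit4: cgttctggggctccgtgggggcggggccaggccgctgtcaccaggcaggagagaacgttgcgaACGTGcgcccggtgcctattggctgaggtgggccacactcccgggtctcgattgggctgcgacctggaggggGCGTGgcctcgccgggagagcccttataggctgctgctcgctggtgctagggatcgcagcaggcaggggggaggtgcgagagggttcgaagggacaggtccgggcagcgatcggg
Slc2a1: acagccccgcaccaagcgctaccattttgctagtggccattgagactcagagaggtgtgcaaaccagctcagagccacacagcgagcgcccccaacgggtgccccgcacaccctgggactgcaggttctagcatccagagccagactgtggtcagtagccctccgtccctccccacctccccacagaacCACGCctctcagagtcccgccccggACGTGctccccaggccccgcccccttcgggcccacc
Pgk1: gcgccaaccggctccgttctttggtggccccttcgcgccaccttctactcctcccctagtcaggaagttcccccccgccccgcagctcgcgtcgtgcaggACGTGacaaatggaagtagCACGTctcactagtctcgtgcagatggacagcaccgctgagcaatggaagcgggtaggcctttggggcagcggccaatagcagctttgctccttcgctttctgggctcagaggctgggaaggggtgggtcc
Ldha: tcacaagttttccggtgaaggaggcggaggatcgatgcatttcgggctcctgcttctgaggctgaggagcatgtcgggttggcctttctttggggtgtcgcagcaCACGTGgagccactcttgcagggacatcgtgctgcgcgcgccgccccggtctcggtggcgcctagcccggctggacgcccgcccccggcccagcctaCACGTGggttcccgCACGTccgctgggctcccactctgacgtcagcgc
Bnip3: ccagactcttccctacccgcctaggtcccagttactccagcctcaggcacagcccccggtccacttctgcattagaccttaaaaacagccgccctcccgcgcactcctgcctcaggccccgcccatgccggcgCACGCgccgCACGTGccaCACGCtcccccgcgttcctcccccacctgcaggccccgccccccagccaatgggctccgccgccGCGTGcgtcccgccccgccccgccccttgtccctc
The Ddit4 window is chr10:59951771-59952020 (minus strand), the Slc2a1 window chr4:119108495-119108744 (plus), the Pgk1 window chrX:106186850-106187099 (plus), the Ldha window chr7:46845554-46845803 (plus) and the Bnip3 window chr7:138909507-138909756 (minus). Ddit4 held ACGTG 187 bases and GCGTG 115 bases before its start. Slc2a1 held 1 copy of each core, and Pgk1 held 2 copies of ACGTG and none of GCGTG. The Ldha window shown held 5 of ACGTG, 4 of them in 2 palindromes, and none of GCGTG. Another Ldha window, from a different start, held no ACGTG and 1 GCGTG, 59 bases before that start. Bnip3 held 2 of ACGTG and 3 of GCGTG. The table had entries for 28 of the 32 genes, in 40 windows, some of which overlap because a gene has several starts; Ndrg1, Epas1, Slc2a3 and Bnip3l had none. ACGTG was in 21 of these 40 windows (52.5%), against 16.6% of all 32851 windows in the table, and GCGTG in 20 of 40, against 28.2%. One core or both were in 32 of 40 windows, against 38.6%. A match describes the letters in a window and is no measured binding site.

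No member passed the test in any of the comparisons of TCDD with solvent, as fitted with 1 mean per group over all 12 arrays (limma, adjusted p under 0.05 over 15844 probe sets). Few probe sets did: 0.0189% passed at 2 h, 0.0126% at 4 h and 0.00631% at 6 h. The average of the 3 times has the smallest error, and 0.0947% passed there. At an unadjusted p under 0.05 the average singled out 2 of 27 members, Ndrg1 and Ddit4, both higher with TCDD, where 3.36% of all probe sets met that level. Of the 27 average differences 9 were above 0 and 18 below, with a median of -0.05, against 44% and 49.8% of all tested probe sets and a median of 0. In 23 of the 27 the average lay within 0.2 of 0 on the log2 scale. Pairing arrays by their replicate number changed no member's call. At single times 1 member had an unadjusted p under 0.05 at 2 h (Ddit4; 1.49% of all probe sets), 1 at 4 h (Ndrg1; 2.17% of all) and 0 at 6 h (2.15% of all). With array set as a block these were 2 at 2 h (Ndrg1 and Ddit4; 2.7% of all), 1 at 4 h (Ndrg1; 2.8% of all) and 1 at 6 h (Pdk1, lower with TCDD; 3.72% of all).

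**Figure D1:**
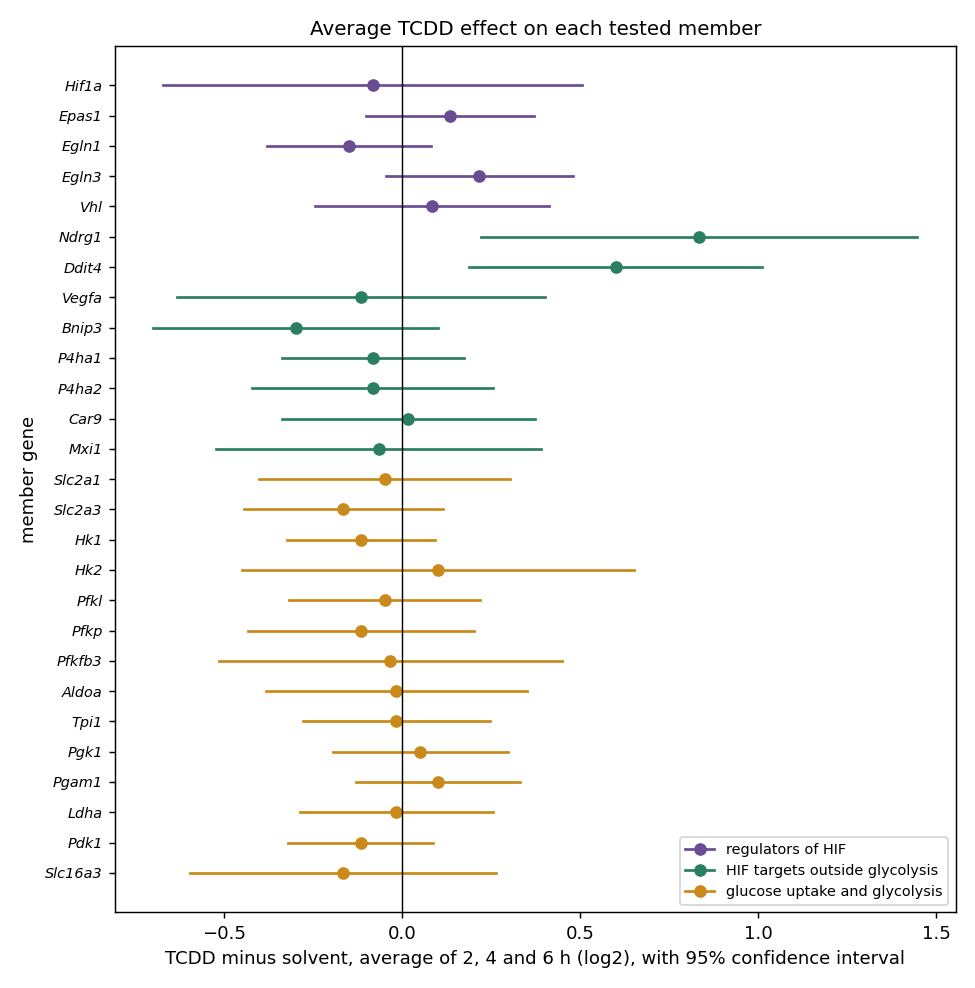
TCDD minus solvent for the 27 tested members (log2, average of 2, 4 and 6 h; points are estimates and bars 95% confidence intervals from limma, 12 arrays). The intervals of Ndrg1 and Ddit4 lie above 0 before adjustment over all probe sets, and the other 25 include 0.

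Ndrg1 encodes a cytoplasmic stress- and differentiation-associated protein that is among the strongest hypoxia-induced transcripts in many cell types. Its probe set with the highest signal (1420760_s_at) read 9.1 and 10.2 with TCDD at 2 h, against 8.3 and 9.0 with solvent. At 4 h it read 9.9 and 8.8 with TCDD, against 8.1 and 8.1 with solvent. At 6 h it read 8.1 and 9.0 with TCDD, against 8.0 and 8.6 with solvent. The TCDD arrays thus lay above the solvent arrays without overlap at 2 and 4 h, and the groups overlapped at 6 h. The differences were 1.00 ± 0.48 at 2 h, 1.25 ± 0.48 at 4 h and 0.25 ± 0.48 at 6 h (log2, SE), and the average was 0.83 ± 0.27 (a fold of 1.78, 95% confidence interval 0.22 to 1.45 on the log2 scale). Its unadjusted p was 0.0129 and its limma adjusted p was 1.

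All 5 Ndrg1 probe sets ran the same way, though they share the gene and the arrays and are not independent. Their average differences were 0.83 (1420760_s_at), 0.80 (1456174_x_at), 0.80 (1450976_at), 0.67 (1450977_s_at) and 1.02 (1423413_at). At 4 h the 5 differences lay between 1.20 and 1.60 and at 6 h between 0.15 and 0.25. The probe set with the largest average, 1423413_at, read 7.0 and 8.4 with TCDD at 2 h, against 6.0 and 7.0 with solvent, so that its groups touched. At 4 h it read 8.1 and 6.7 with TCDD, against 5.9 and 5.7 with solvent, and at 6 h 6.3 and 6.6 with TCDD, against 6.1 and 6.3 with solvent. Its unadjusted p for the average was 0.00767 and its limma adjusted p 0.850.

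Ndrg1 also differed between arrays of one group, and these differences were about as large as those between treatments. Ndrg1 (1420760_s_at) was higher in the smaller set in 5 of 5 groups, by 0.88 on average. Compared within the larger set, Ndrg1 was higher with TCDD by 0.8 at 2 h, 0.7 at 4 h and 0.1 at 6 h. In the smaller set the same difference was 1.2 at 2 h and 0.4 at 6 h. In either set each value is from 1 array against 1, except at 4 h. There 1 TCDD array stood against both solvent arrays. With array set as a block the 4 h difference was 0.81 ± 0.17 and the average 0.69 ± 0.10 (fold 1.61), with a limma adjusted p of 0.0262. The probe set 1456174_x_at also passed in that fit, at 0.65 ± 0.09 and a limma adjusted p of 0.0180. The other 3 did not pass, with adjusted p-values of 0.0623 (1450976_at), 0.137 (1423413_at) and 0.289 (1450977_s_at). Ndrg1 was the only member gene past the test in that fit, in which 0.29% of all probe sets passed. The array sets were found by clustering these same expression values, and Ndrg1 differs between them. The adjusted p-values of this fit take no account of that choice. A block of these 2 sets joins the 3 small clusters, so the 4 clusters were also fitted as a block. That setting was chosen after seeing the data and leaves 3 residual degrees of freedom. The first 4 h TCDD array is a cluster by itself, so that fit in effect leaves this array out. There 0.454% of all probe sets passed and Ndrg1 was again the only member gene, but 1420760_s_at did not pass (0.65 ± 0.09, limma adjusted p = 0.0526). The probe sets 1456174_x_at, 1423413_at and 1450976_at passed, with limma adjusted p-values of 0.0331, 0.0357 and 0.0453. Over 22 other settings for the average, the adjusted p of 1420760_s_at ranged from 0.0262 to 1 and its difference from 0.65 to 1.02.

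**Figure D2:**
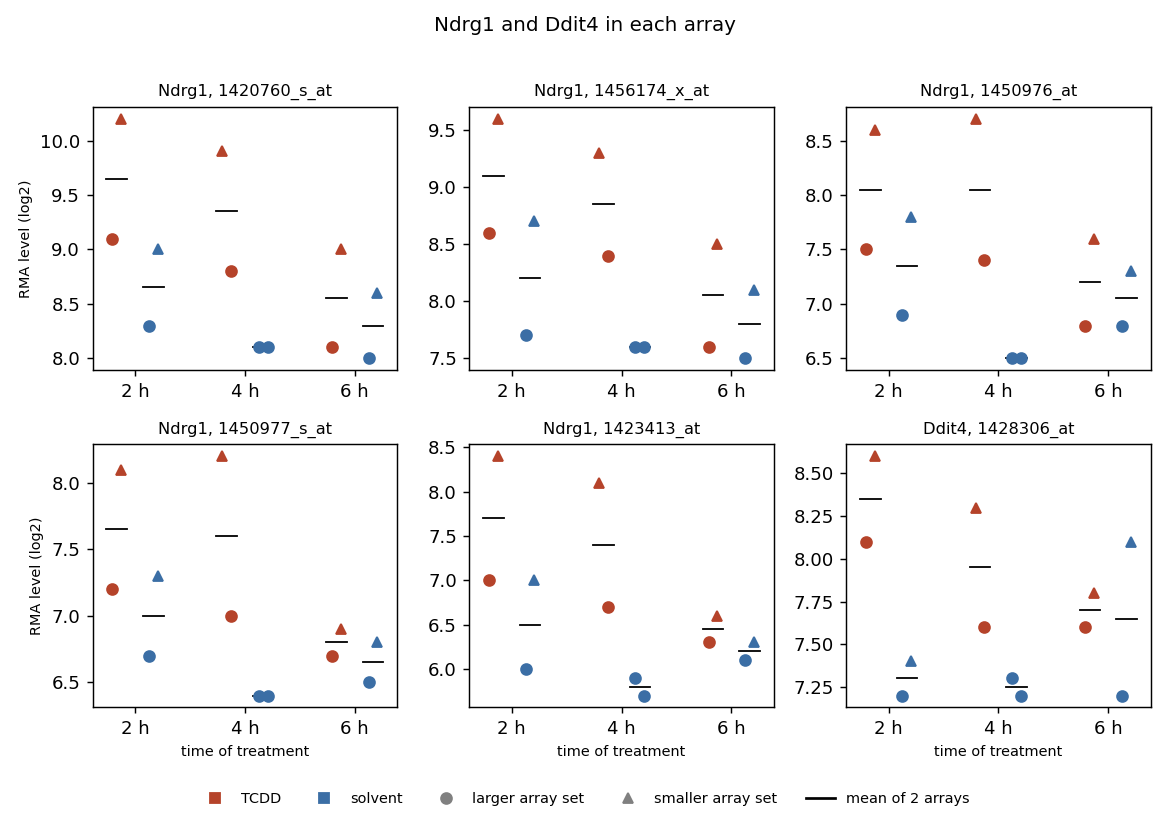
RMA level (log2) of the 5 Ndrg1 probe sets and of Ddit4 in each of the 12 arrays by time (TCDD left of solvent; circles are the larger and triangles the smaller array set; lines are means of 2 arrays; each panel has its own axis). Ndrg1 in TCDD arrays of 2 and 4 h reached 10.2 and 9.9 on its highest probe set, and the triangle lies above the circle in every group that holds both.

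Ddit4, also called Redd1, encodes an inhibitor of the growth kinase mTORC1 that hypoxia, glucocorticoids and energy stress induce. It read 8.1 and 8.6 with TCDD at 2 h, against 7.2 and 7.4 with solvent. At 4 h it read 8.3 and 7.6 with TCDD, against 7.3 and 7.2 with solvent, and at 6 h 7.6 and 7.8 with TCDD, against 7.2 and 8.1 with solvent. The groups did not overlap at 2 and 4 h, and at 6 h the solvent values bracketed those with TCDD. The differences were 1.05 ± 0.32 at 2 h (fold 2.07, 95% confidence interval 0.34 to 1.76 on the log2 scale), 0.70 ± 0.32 at 4 h and 0.05 ± 0.32 at 6 h. The average was 0.60 ± 0.18 (fold 1.52), with an unadjusted p of 0.00887 and a limma adjusted p of 0.912, which ranged from 0.157 to 1 over 22 other settings. The Ddit4 difference in arrays of the larger set was 0.9 at 2 h, 0.35 at 4 h and 0.4 at 6 h. In arrays of the smaller set it was 1.2 at 2 h and -0.3 at 6 h. With the 4 h and 6 h solvent arrays as 1 group, because of their conflicting labels, the Ddit4 difference at 6 h was 0.25.

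For both genes the difference was smaller at 6 h than at 2 h, by 0.75 ± 0.67 for Ndrg1 and by 1.00 ± 0.45 for Ddit4. The test of whether the TCDD effect changed over time passed for neither (limma F-test, adjusted p = 0.9995 for both). No probe set passed it, with 0.663% at an unadjusted p under 0.05 and 0 of the 27 members among them. With array set as a block the unadjusted p was 0.0257 for Ndrg1 and 0.0148 for Ddit4, the 2 members under 0.05, where 1.49% of all probe sets were, and the adjusted p stayed at 1.

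The regulators gave small differences in both directions. Hif1a read 8.4 and 8.0 with TCDD at 2 h, against 7.8 and 8.4 with solvent, and 8.5 and 8.5 with TCDD at 6 h, against 8.8 and 8.1 with solvent. At 4 h it read 6.7 and 8.3 with TCDD, against 7.7 and 8.1 with solvent, and 6.7 was the lowest of its 12 values. Its average difference was -0.08 ± 0.26, and its 4 h difference was -0.40, or 0.40 without the first 4 h TCDD array and -0.68 with the 4 h and 6 h solvent arrays as 1 group. A second Hif1a probe set, 1416035_at, also had its lowest value in that array, 4.7 against 5.4 to 6.4 in the other arrays.

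Epas1, the HIF-2alpha gene, differed by 0.13 ± 0.11 on average and ranged from 4.2 to 4.8 with TCDD and from 4.1 to 4.8 with solvent. Egln3, itself a HIF target, had the highest average difference of the 5 regulators, 0.22 ± 0.12. It read 5.5 and 5.5 with TCDD at 2 h, against 5.0 and 5.6 with solvent, then 5.1 and 5.1, against 4.9 and 4.8, at 4 h, and 5.1 and 5.3, against 4.9 and 5.1, at 6 h. Only the 4 h values did not overlap. A second Egln3 probe set, 1418649_at, had an average difference of 0.05 ± 0.17 and at 6 h read 4.3 and 4.4 with TCDD, against 4.5 and 4.9 with solvent, the opposite direction. Egln1, the main oxygen-sensing hydroxylase, differed by -0.15 ± 0.10 and Vhl, the ubiquitin-ligase subunit that recognises hydroxylated HIF-alpha, by 0.08 ± 0.15. Arnt, the partner that HIF and AhR share, differed by -0.03 ± 0.10.

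Of the other 6 HIF targets outside glycolysis none had an unadjusted p under 0.05 in any comparison with solvent, without a block or with array set as a block. Vegfa, the angiogenic growth factor, read 7.2 and 8.3 with TCDD at 2 h, against 7.2 and 8.3 with solvent, and 7.2 and 6.8 at 4 h, against 7.0 and 6.9. At 6 h it read 6.7 and 7.1 with TCDD, against 7.2 and 7.4 with solvent, the one time at which its groups did not overlap. Its average difference was -0.12 ± 0.23, and a second probe set (1451959_a_at) gave -0.02 ± 0.25. Car9, the cell-surface carbonic anhydrase that hypoxic tumours express, lay between 4.6 and 5.5 with TCDD and between 4.8 and 5.2 with solvent and differed by 0.02 ± 0.16.

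Bnip3, a mitochondrial protein of mitophagy, had the lowest average difference of all 27 members, -0.30 ± 0.18. It read 9.2 and 9.2 with TCDD at 2 h, against 9.1 and 9.6 with solvent, 8.1 and 9.2 at 4 h, against 9.2 and 9.1, and 9.0 and 8.9 at 6 h, against 9.1 and 9.3. The value of 8.1 came from the first 4 h TCDD array, in which Hif1a was also lowest; without that array the average was -0.12 and the 4 h difference 0.05, against -0.50 with it. Mxi1, a Myc antagonist, was likewise lowest in that array, at 7.0, and its 4 h difference was -0.35, or 0.20 without it; the average over times was -0.07 ± 0.20. At 2 h Mxi1 read 8.2 and 8.0 with TCDD, against 7.9 and 7.5 with solvent. With the 4 clusters as a block that 2 h difference was 0.40 ± 0.13 (limma unadjusted p = 0.0220, adjusted p = 0.680). P4ha1 and P4ha2, subunits of the hydroxylase that stabilises collagen, each differed by -0.08 on average (SE 0.11 and 0.15). The intervals of these 6 genes reached from -0.70 to 0.40 at their widest, so a difference of 0.60 above 0, as seen for Ddit4, lay outside them, while one of that size below 0 lay inside those of Vegfa and Bnip3.

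The glucose and glycolysis genes gave average differences close to 0. For all 14 tested members the average difference lay between -0.17 and 0.10, and none had an unadjusted p under 0.05. Slc2a1, the basal glucose transporter and a classical HIF target, read 9.3 and 10.2 with TCDD at 2 h, against 9.6 and 9.9 with solvent, and 9.8 and 9.4 at 4 h, against 9.3 and 9.5. At 6 h it read 9.2 and 9.1 with TCDD, against 9.5 and 9.5 with solvent. The groups overlapped at 2 and 4 h and not at 6 h, where the difference was -0.35 ± 0.27, and the average was -0.05 ± 0.16. Slc2a3, a neuronal-type transporter, had a mean of 4.00, just above the level for testing, and differed by -0.17 ± 0.13.

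The hexokinases trap glucose in the cell. Hk2, the isoform that HIF induces, read 7.4 and 7.8 with TCDD at 2 h, against 7.3 and 7.3 with solvent, 8.0 and 6.9 at 4 h, against 6.9 and 7.1, and 6.5 and 7.5 at 6 h, against 7.0 and 7.9. Its arrays of one group differed by up to 1.1, more than any of its treatment differences (0.30, 0.45 and -0.45), and the average was 0.10 ± 0.25. Hk1, the constitutive isoform, was more even and differed by -0.12 ± 0.09. The phosphofructokinases, which set the committed step, differed by -0.05 ± 0.12 (Pfkl) and -0.12 ± 0.14 (Pfkp), and Pfkfb3, which makes their activator, by -0.03 ± 0.22.

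Enzymes of the lower pathway gave averages within 0.10 of 0. Aldoa (aldolase) differed by -0.02 ± 0.16, Tpi1 (triosephosphate isomerase) by -0.02 ± 0.12, Pgk1 (phosphoglycerate kinase) by 0.05 ± 0.11 and Pgam1 (phosphoglycerate mutase) by 0.10 ± 0.10. Ldha, which reduces pyruvate to lactate, read 12.1 and 12.2 with TCDD at 2 h, against 12.1 and 12.1 with solvent, 12.4 and 11.9 at 4 h, against 12.1 and 12.1, and 11.8 and 12.1 at 6 h, against 11.9 and 12.3. The groups overlapped or touched at every time and the average was -0.02 ± 0.12, with a 95% confidence interval of -0.29 to 0.26. Pdk1, a kinase that inhibits pyruvate dehydrogenase, differed by -0.12 ± 0.09 and Slc16a3, the lactate exporter MCT4, by -0.17 ± 0.19. The further tested probe sets of the members gave average differences between -0.12 and 0.10, none past the test.

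**Figure D3:**
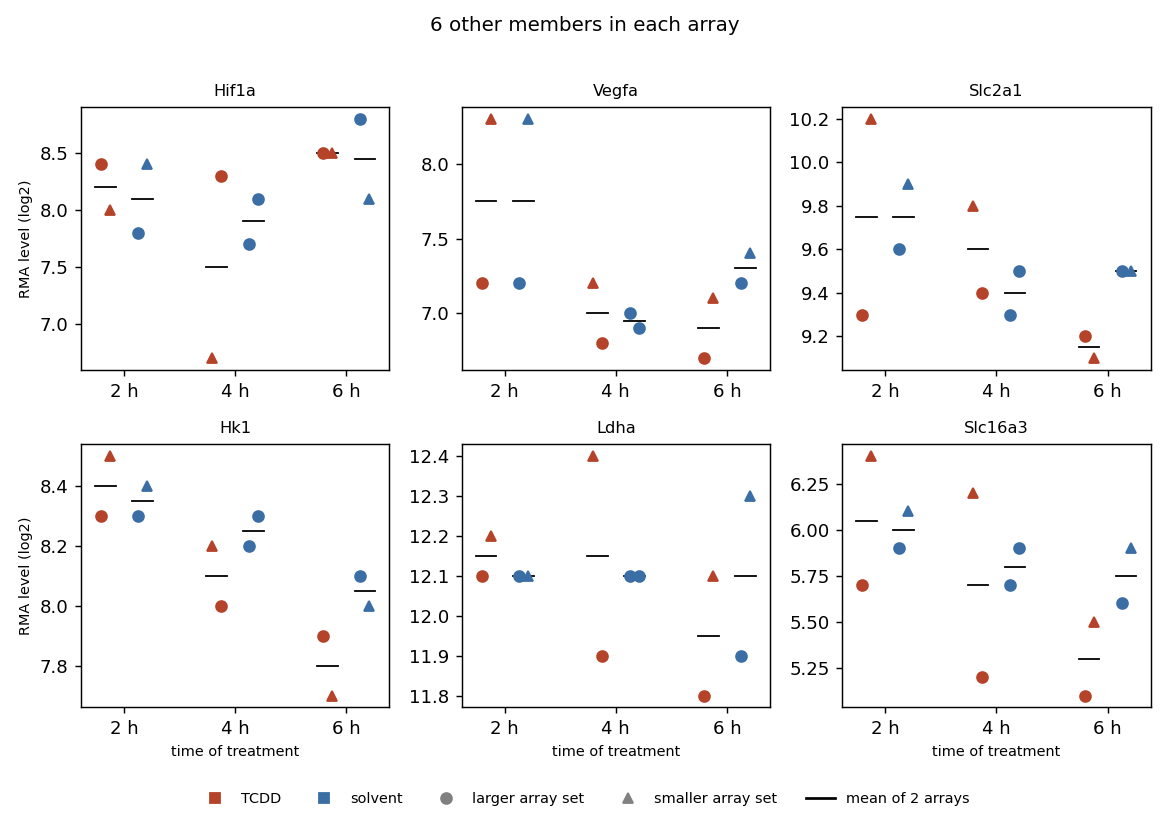
RMA level (log2) of 6 members in each of the 12 arrays by time (TCDD left of solvent; circles are the larger and triangles the smaller array set; lines are means of 2 arrays; each panel has its own axis). Hif1a was lowest, at 6.7, in the first 4 h TCDD array, and at 6 h the TCDD values of Vegfa, Slc2a1, Hk1 and Slc16a3 lie below those of solvent.

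The members divided differently at the 3 times. At 2 h, 17 of 27 differences were above 0 and 3 below, with a median of 0.05, where 43.8% and 42.8% of all tested probe sets were above and below. At 4 h, 16 were above and 10 below (44.5% and 46.4% of all), again with a median of 0.05; with array set as a block these became 10 above and 17 below, with a median of -0.07. At 6 h, 7 were above and 19 below, with a median of -0.25, against 38.7% and 51.1% of all probe sets and a median of -0.05. Of the 14 glycolysis members 13 were below 0 at 6 h and their median was also -0.25. Values are deposited to 1 decimal, so many of these differences are a few steps of rounding.

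Counts of groups that did not overlap ran alike. At 2 h the TCDD arrays lay above both solvent arrays in 5 of 27 members (Ndrg1, Ddit4, Mxi1, Hk2 and Pgam1), against 7.16% of all probe sets, and below in 0, against 6.68%. At 4 h they lay above in 3 (Egln3, Ndrg1 and Ddit4; 7.95% of all) and below in 3 (Egln1, P4ha1 and Pfkp; 11.1% of all). At 6 h they lay above in 0 (9.69% of all) and below in 8 (Vegfa, Bnip3, Car9, Slc2a1, Hk1, Tpi1, Pdk1 and Slc16a3), which is 29.6% of members, against 9.66% of all probe sets. None of the 8 had an unadjusted p under 0.05 without a block; the nearest was Pdk1, which read 6.8 and 7.0 with TCDD, against 7.2 and 7.3 with solvent (-0.35 ± 0.16, limma unadjusted p = 0.0520, adjusted p = 1). With array set as a block the Pdk1 difference was -0.35 ± 0.14 (limma unadjusted p = 0.0357, adjusted p = 0.959). Its second probe set, 1423747_a_at, overlapped at 6 h, with 6.4 and 6.0 in TCDD arrays, against 6.6 and 6.1 in solvent arrays (-0.15 ± 0.22, limma unadjusted p = 0.514). The second Vegfa probe set, 1451959_a_at, also overlapped at 6 h, with 6.3 and 6.8, against 6.7 and 7.2. Further probe sets of Tpi1 (1452927_x_at and 1435659_a_at) overlapped or touched, while those of Slc2a1 and Hk1 did not. With the 4 h and 6 h solvent arrays as 1 group the member median at 6 h was -0.23. It was -0.15 without the first 6 h TCDD array and -0.2 without the second. Without the first 6 h solvent array it was -0.35, and without the second -0.1.

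**Figure D4:**
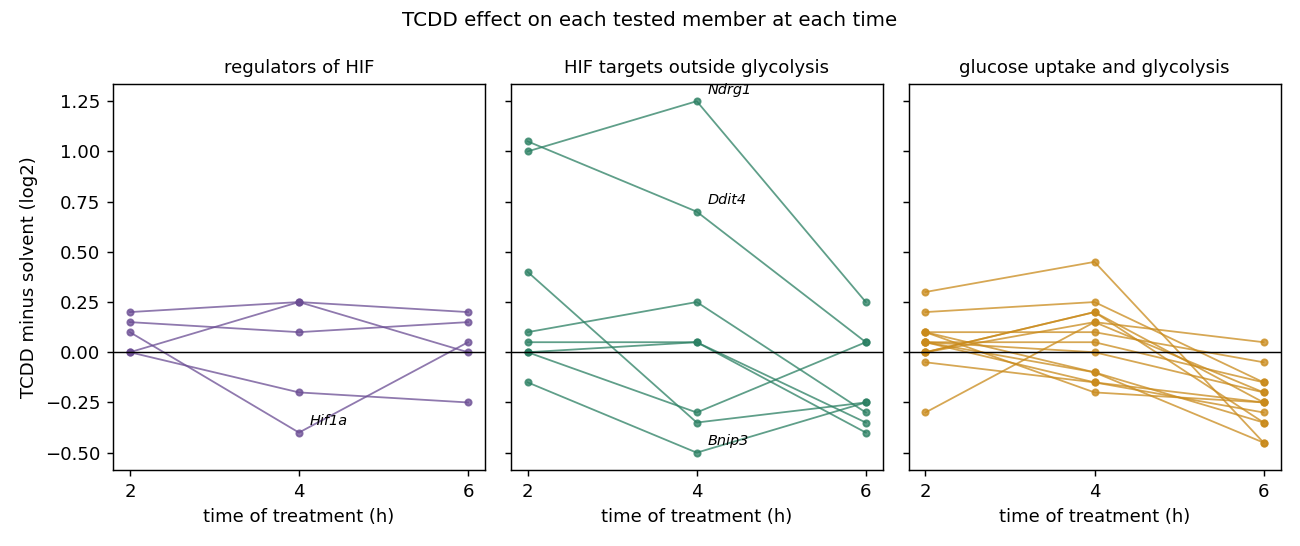
TCDD minus solvent (log2, difference of the means of 2 arrays) for the 27 tested members at 2, 4 and 6 h, with a line for each member and a panel for each role. Ndrg1 and Ddit4 stand at 1.00 and 1.05 at 2 h, and 13 of 14 glycolysis members lie below 0 at 6 h.

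Between 2 and 6 h most members had lower values at the later time, none of them past the test. At 6 h against 2 h, averaged over both treatments, 24 of 27 members had lower values, against 51.6% of all probe sets, and their median difference was -0.28. At an unadjusted p under 0.05 there were 7 members, all lower, where 11.1% of all probe sets met that level in either direction. Hk1 differed by -0.45 ± 0.11, Pfkp by -0.63 ± 0.17, Epas1 by -0.45 ± 0.13 and Vegfa by -0.65 ± 0.28, and Vhl, Pdk1 and Tpi1 by -0.45, -0.28 and -0.33. The limma adjusted p of these 7 lay between 0.433 and 0.449. With array set as a block 15 of 27 members had an unadjusted p under 0.05, all lower, where 18% of all probe sets did, and the lowest adjusted p of a member was 0.149, for Ndrg1.

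The lower values at 6 h were seen in each treatment. In TCDD arrays 24 of 27 members were lower at 6 h than at 2 h, with a median of -0.45, against 52% of all probe sets. In solvent arrays 18 of 27 were lower, with a median of -0.15, against 45.1% of all. Vegfa was lower by 0.85 with TCDD and by 0.45 with solvent, Pfkp by 0.80 and 0.45, and Epas1 by 0.45 in each. In solvent arrays Vegfa read 7.2 and 8.3 at 2 h and 7.2 and 7.4 at 6 h. Its fall with solvent thus lay between the second arrays, of the smaller set, which belong to different clusters. Both 6 h solvent arrays are also those described as 4 h in their free text. Since the 6 h TCDD arrays enter this comparison and that of TCDD with solvent at 6 h, the counts are not independent of each other.
At 4 h against 2 h, 21 of 27 members had lower values, where 45.1% of all probe sets did, with a median of -0.18. With array set as a block 19 of 27 were lower, against 47.8% of all probe sets, with a median of -0.105. The median was -0.075 with the 4 clusters as a block and -0.025 without the second 4 h TCDD array. At an unadjusted p under 0.05 there were 3 (2.84% of all probe sets): Vegfa (-0.78 ± 0.28), Pfkfb3 (-0.68 ± 0.26) and Egln3 (-0.43 ± 0.14), each with a limma adjusted p of 0.990.

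The split between array sets touched HIF targets beyond Ndrg1. In 9 of 27 members the array of the smaller set was the higher one in 5 of 5 groups, which is 33.3%, against 7.56% of all tested probe sets. These were 5 of the 8 targets outside glycolysis (Ndrg1, Ddit4, Vegfa, P4ha2 and Car9) and 4 of the 14 glycolysis members (Pfkfb3, Aldoa, Pgk1 and Slc16a3). Vegfa was higher in the smaller set by 0.64 on average, Pfkfb3 by 0.56, Slc16a3 by 0.52 and Aldoa by 0.48. Mxi1 ran the other way in all 5 groups, by -0.56 on average. These values describe a split made from the same arrays and carry no test.

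One of 2 measures of RNA quality differed between the sets: the signal of 3′ over 5′ Actb probe sets was 0.1 to 0.2 lower in the smaller set in each of the 5 groups. The same measure of Gapdh ran in no 1 direction, at 0, -0.1 and -0.1 (smaller minus larger) with TCDD at 2, 4 and 6 h, and 0 and 0.1 with solvent at 2 and 6 h. Between treatments the Actb measure did not differ in range, 0.5 to 0.8 in TCDD and in solvent arrays. The part of the split between array sets or of RNA quality in the member values was not tested, beyond the values within sets and with the blocks given above.

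**Figure D5:**
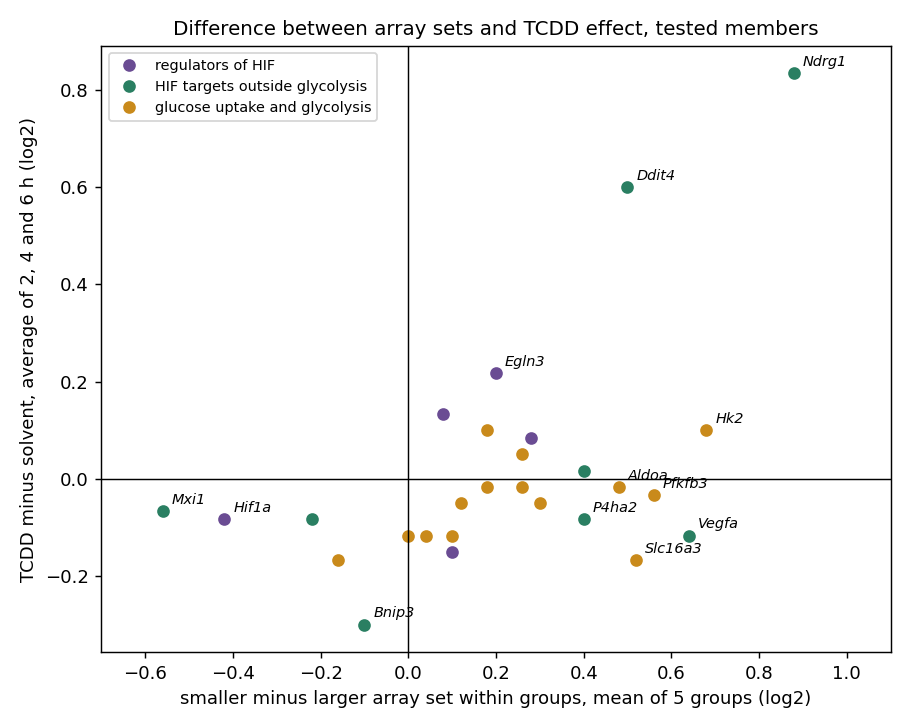
Each point is 1 of the 27 tested members, with the mean difference between the smaller and the larger array set over 5 groups on the x axis and the average TCDD minus solvent difference on the y axis (both log2). Ndrg1 and Ddit4 are high on both axes, while Vegfa (0.64 and -0.12), Hk2 (0.68 and 0.10) and Pfkfb3 (0.56 and -0.03) differ between sets and lie near 0 for TCDD. The axes are not independent, since at 4 h a TCDD array but no solvent array is in the smaller set.

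Beyond the list, 30 other hypoxia-response genes and 19 other genes of glycolysis and its branches were tested, and none passed for the average of 3 times. Of the 30, 14 had averages above and 15 below 0, with a median of -0.02, and 1 higher and 4 lower had an unadjusted p under 0.05, which is 16.7%, against 3.36% of all probe sets. The 2 with the largest averages were Dusp1, a MAP kinase phosphatase (-0.70 ± 0.25), and Plod2, a collagen lysyl hydroxylase (-0.67 ± 0.23), both lower with TCDD and both with a limma adjusted p of 1. Plod2 read 6.6 in the first 4 h TCDD array, against 7.8 to 8.8 in the other arrays. Also among the 4 lower were Angptl4 (-0.57 ± 0.21) and Cited2 (-0.47 ± 0.19). Hilpda, a lipid-droplet protein and HIF target, was the 1 that was higher. It was singled out after its values were seen because its times ran like those of Ddit4. It read 7.0 and 7.8 with TCDD at 2 h, against 6.5 and 6.3 with solvent, 7.5 and 6.7 at 4 h, against 6.6 and 6.7, and 6.6 and 6.5 at 6 h, against 6.3 and 6.8. Its differences were 1.00, 0.45 and 0.00, and the average was 0.48 ± 0.18 (limma adjusted p = 1). Of the 19 glycolysis genes 10 were above and 7 below 0, and 1, or 5.26%, had an unadjusted p under 0.05, against the same 3.36%. Pdk3, a pyruvate dehydrogenase kinase, had the largest average, 0.52 ± 0.14 (limma adjusted p = 0.731), and read 7.8 and 7.8 with TCDD at 6 h, against 6.9 and 7.2 with solvent. Pdk4 followed with -0.32 ± 0.39. At 6 h alone, 22 of the 30 other hypoxia genes and 13 of the 19 other glycolysis genes were below 0. These are 73.3% and 68.4%, against 51.1% of all probe sets. The median at 6 h was -0.1 in each of these lists, against -0.05 for all probe sets and -0.25 for the members.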

How the data were processed

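Total RNA of 12 cultures was hybridised to 1-colour Affymetrix arrays by the manufacturer's protocol, per the labels. The deposited values are log2 expression per probe set, made by the authors with RMA per the submitters' processing notes, and are rounded to 1 decimal; further settings are not given in the sources used here. They ranged from 2.2 to 14.1 with a median of 5.1 on every array. Of 22690 probe sets 64 were controls; of the rest 20380 had 1 gene symbol in the platform annotation, 691 several and 1555 none, and 20351 matched a RefSeq gene. No 2 arrays were identical. The number of arrays limits the precision.

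limma 3.58.1 (R 4.3.3) fitted 1 mean per group over all 12 arrays, with moderated tests and Benjamini-Hochberg adjustment over the 15844 probe sets at or above the 30th percentile. An adjusted p under 0.05 was called. The fit was tested on simulated data. Named genes are the members, and from the wider lists those past a test and the 2 with the largest average difference. Hilpda, Angptl4 and Cited2 were named outside this rule, after their values were seen. Members and lists were chosen with earlier results of these data known.

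Same-numbered arrays of the 2 treatments deviated together (correlations of 0.365 at 2 h, 0.159 at 4 h and 0.705 at 6 h over probe sets). The replicate number of the titles was therefore used to pair them in alternative fits, while the main fit was unpaired. The block within time lowered the count of probe sets past the test to 1 at 2 h and 1 at 4 h, against 3 and 2 without it. Alternatives changed the block, filter, centring, variance prior, arrays fitted, probe set or solvent grouping, or left out 1 array. The array sets were found by clustering these data, and the block of 4 clusters was added after seeing the data.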

Additional observations from a re-analysis of the deposited data

How the results depend on the processing

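Each comparison was repeated under 22 or 23 other settings, giving 4981 member values, of which 5 passed the test, all Ndrg1 averaged over times: 1420760_s_at and 1456174_x_at with array set as a block, and 1456174_x_at, 1450976_at and 1423413_at with the 4 clusters as a block, chosen after seeing the data. The array sets were likewise found in these data. In 147 member values the sign changed, and none of these passed on either side. Counts of probe sets past the test moved as follows. At 2 h the count was 3, and it was 1 with the replicate block within time, 10 with array set as a block, 21 with 4 clusters, 6 with the 4 h and 6 h solvent arrays as 1 group, 0 with only the arrays of that time, and 0 to 9 when 1 array was left out. At 4 h it was 2, and 1 with the replicate block within time, 1 with the replicate block over all times, 7 with array set, 8 with solvent arrays pooled, 0 with only that time, and 1 to 59 when 1 array was left out; the 59 came without the second 4 h TCDD array. At 6 h it was 1, and 8 with array set, 16 with 4 clusters, 11 with solvent arrays pooled, 0 with only that time, and 0 to 7 when 1 array was left out. For the average it was 15, and 46 with array set, 72 with 4 clusters and 10 to 24 when 1 array was left out; member genes past the test numbered 0, or 1 with array set and 1 with 4 clusters. At 6 h against 2 h the count was 0, or 1 with array set. The replicate blocks changed no other call, and no member passed when 1 array was left out. The cause of these changes was not tested. The median difference of the members was 0.25 at 2 h without the first 2 h TCDD array and 0.25 at 4 h without the second 4 h TCDD array, but -0.05 at 2 h without the second 2 h TCDD array and -0.10 at 4 h without the first 4 h TCDD array, against 0.05 in each with all arrays. With 2 arrays per group and values rounded to 1 decimal, small differences cannot be resolved.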
